A study of Mus musculus with 45 samples.

Results

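The 10 genes described here across a mouse series of fibroblast-to-muscle reprogramming were Sema6b, Thbs4, Pkdcc, P2rx1, Lyve1, Cpm, Moxd1, Dync1i1, Sh2d3c and Asxl3. They were picked from the same data, out of 35675 genes, as high after 8 and 10 days of MyoD with F/R/C but low in the starting fibroblasts, with MyoD alone and in established progenitor cultures. Those levels are therefore a description and carry no test. Tests are given only for comparisons among days 2, 4 and 6 with F/R/C and among sorted cells and myoblasts, which the choice did not name.

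Mouse embryonic fibroblasts (MEFs) of the genotype Tg:Pax7-nGFP/C57BL6;DBA2 carried a MyoD gene induced by doxycycline and a reporter that puts GFP in the nuclei of cells with Pax7, which encodes a transcription factor found in muscle stem cells. Bulk RNA-seq covered these cells untreated, after 2, 4, 6, 8 and 10 days of doxycycline (MyoD alone, labelled as myotubes), and on the same days of doxycycline with F/R/C (labelled as fibres with progenitors). The labels do not spell out F/R/C; in the published protocol for induced myogenic progenitor cells (iMPCs) the letters stand for forskolin, the TGF-beta receptor inhibitor RepSox and a GSK3 inhibitor. Bulk iMPCs had received 13 days of doxycycline with F/R/C and were then kept in F/R/C medium without doxycycline. The other groups were Pax7-positive iMPCs and Pax7-positive myoblasts, both purified by the GFP reporter, and unsorted primary myoblasts from skeletal muscle. All 45 libraries, 3 in each of 15 groups, share the reporter genotype. Whether a library of bulk iMPCs is a single clone was not given in the sources used here.

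MyoD is a master regulator that can turn fibroblasts into fusing muscle cells, and added small molecules divert part of such cultures to Pax7-positive progenitors. The 10 genes belong to no single pathway. Sema6b, Thbs4 and Pkdcc encode a guidance cue, a matrix protein and a secreted kinase. P2rx1, Lyve1 and Cpm encode cell surface proteins, and Moxd1, Dync1i1, Sh2d3c and Asxl3 encode proteins that work inside the cell.

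The libraries held 15.6 to 36.3 M reads, with all 3 bulk iMPC libraries and 1 bulk myoblast library above the rest. Pax7 was at 263 to 813 CPM (counts per 1 M reads, scaled by TMM) in the sorted libraries, at 47.1 to 75.7 CPM on day 10 with F/R/C and at most 0.198 CPM with MyoD alone. In the 33 libraries of MEFs and the time course, the 11 of replicate number 3 had 146 to 180 CPM of Y-linked genes and the 22 others at most 3.12 CPM, so replicate number and sex-linked expression go together. The 6 sorted libraries were quantified with another fragment length setting, so sorting and that setting cannot be told apart. In bulk samples, fewer cells of a type and less RNA per cell cannot be told apart either.

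The windows just before the start sites of 3 genes are shown because these genes rose together from day 2 to day 6, as described further on, and were in the RefSeq promoter table for GRCm38.p6. The windows are chr10:24223267-24223516 on the plus strand (Moxd1), chr11:72998895-72999144 on the plus strand (P2rx1) and chr13:92794819-92795068 on the minus strand (Thbs4). Each holds the 250 bases before the start in the RefSeq table, 5′ to 3′. For P2rx1 that start differs from the GENCODE start given below (72999103), so the end of its window lies inside the gene as given there. Capitals mark matches to CANNTG, the letters of any E-box, a class of site that MyoD and related factors can bind.
Moxd1: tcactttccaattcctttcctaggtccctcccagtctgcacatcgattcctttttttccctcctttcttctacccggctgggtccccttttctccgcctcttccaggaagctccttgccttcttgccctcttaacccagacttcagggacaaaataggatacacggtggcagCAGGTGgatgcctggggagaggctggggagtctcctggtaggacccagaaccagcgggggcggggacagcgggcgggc
P2rx1: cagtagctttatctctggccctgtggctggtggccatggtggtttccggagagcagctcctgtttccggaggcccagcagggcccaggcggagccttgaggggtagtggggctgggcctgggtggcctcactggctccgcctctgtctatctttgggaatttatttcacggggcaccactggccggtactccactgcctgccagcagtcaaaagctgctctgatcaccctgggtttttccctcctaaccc
Thbs4: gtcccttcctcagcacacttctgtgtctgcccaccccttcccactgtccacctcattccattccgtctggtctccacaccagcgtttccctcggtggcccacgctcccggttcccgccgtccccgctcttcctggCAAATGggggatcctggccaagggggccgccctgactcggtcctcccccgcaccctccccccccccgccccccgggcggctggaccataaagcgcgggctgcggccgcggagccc

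Motifs were searched on both strands in 9 such windows of the 8 genes found in the table. CANNTG, which also covers CAGCTG, was present in 2 of the 9, against 66.2% of 32851 windows of the same length. CAGCTG, the E-box form preferred by MyoD, TGACGTCA, the cyclic AMP response element, and CTTTGAT, a TCF/LEF motif, were found in none of the 9. They were present in 13.0%, 1.55% and 3.21% of all windows. The Pkdcc window was the richest in G and C (83.2%) and that of Dync1i1 the poorest (40.8%), against a median of 52.4% over all windows. A match or its absence describes these letters only.

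The selection was checked first, library by library. In 7 of the 10 genes, every F/R/C library of days 8 and 10 lay above every library of MEFs, MyoD alone and bulk iMPCs; the share over all 17325 genes tested was 1.43%. The rule used these libraries, so nothing is read from that count. The lowest late F/R/C library exceeded the highest of the others 2.94-fold for P2rx1, 2.54-fold for Thbs4, 2.50-fold for Lyve1, 2.05-fold for Sema6b and 2.00-fold for Pkdcc. The margin was 1.53-fold for Sh2d3c and 1.30-fold for Cpm. Moxd1 (0.947-fold), Dync1i1 (0.954-fold) and Asxl3 (0.904-fold) fell just outside. The highest of the other libraries was replicate 3 of bulk iMPCs for Moxd1 and Dync1i1 and replicate 3 of MyoD alone on day 2 for Asxl3, where replicate 2 of MyoD alone on days 2 and 4 crossed as well. By summed TPM, Asxl3 was also apart, which made 8 of 10.

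The label of the set, high late with F/R/C only, did not hold for all 10 genes. Sema6b and Dync1i1 were high with F/R/C by day 2, and Lyve1 was highest on day 6. In Pax7-positive iMPCs, replicates 2 and 3 of Moxd1, Sh2d3c and Asxl3 reached the levels of days 8 and 10 with F/R/C. For Cpm and Pkdcc only replicate 2 did. Sema6b, at 44.7 and 62.7 CPM in replicates 2 and 3, stayed below those levels. Dync1i1 was also high in part of the myoblast libraries. The levels of each gene follow, always for replicates 1, 2 and 3 in that order and in CPM unless stated otherwise.

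**Figure D1:**
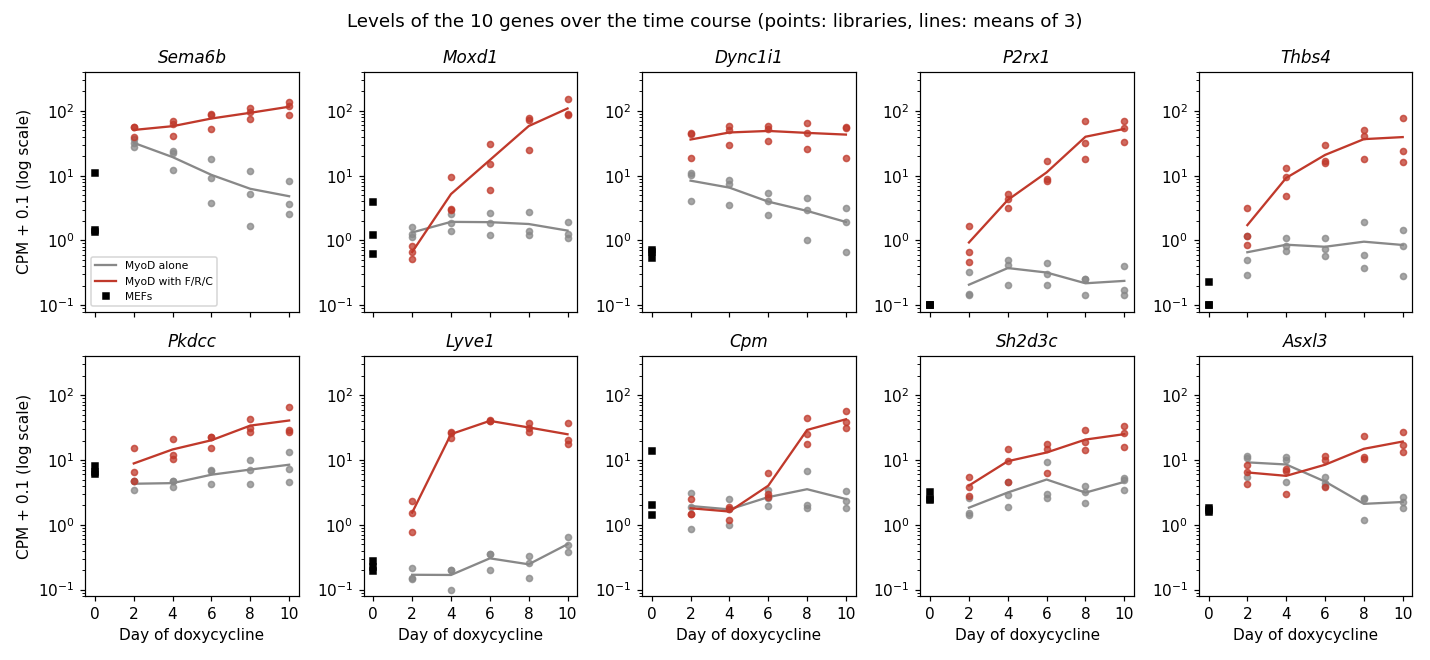
Levels of the 10 genes in MEFs (black squares at day 0), with MyoD alone (grey) and with MyoD and F/R/C (red); the y axis is CPM + 0.1 on a log scale, the x axis the day of doxycycline, each point a library and each line the mean of 3. P2rx1 with F/R/C rises from 0.832 CPM on day 2 to 52.6 CPM on day 10, while Dync1i1 runs nearly flat, from 36.04 to 42.9 CPM.

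Sema6b (chromosome 17, 56123085 to 56140343, minus strand, GRCm38) encodes a transmembrane semaphorin, a guidance cue that signals through plexin-A receptors. It was already raised on day 2 with F/R/C, at 39.7, 55.5 and 56.8 CPM, and stood at 121, 139 and 87.2 CPM on day 10. With MyoD alone it ran the other way, from 27.1, 31.9 and 36.9 CPM on day 2 to 2.45, 8.18 and 3.52 CPM on day 10. The groups did not overlap on either day, and the ratio of their means went from 1.58 to 24.5. The F/R/C mean of day 2 was 43.8% of that of day 10, so part of the widening lay in the lower levels of the other arm. MEFs held 10.9, 1.35 and 1.27 CPM, so replicate 1 stood apart from the other two. Bulk iMPCs held 11.8, 9.41 and 30.03 CPM, Pax7-positive iMPCs 7.93, 44.7 and 62.7 CPM, bulk myoblasts 10.7, 15.7 and 3.31 CPM and Pax7-positive myoblasts 22.7, 10.8 and 11.8 CPM. These 4 groups overlapped. Transcript Sema6b-201 carried 93.3% of the reads in the late F/R/C libraries.

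Thbs4 (chromosome 13, 92751590 to 92794818, minus strand) encodes thrombospondin 4, a secreted glycoprotein of the matrix of tendon and muscle. With F/R/C it was at 0.760, 1.08 and 3.04 CPM on day 2, at 4.71, 9.48 and 13.2 CPM on day 4 and at 15.5, 30.1 and 16.7 CPM on day 6. The replicates then parted. Day 8 gave 51.1, 40.6 and 17.9 CPM and day 10 gave 78.3, 23.6 and 16.1 CPM, so replicate 1 kept the highest level and the day 10 mean was 39.3 ± 33.9 CPM (SD, n = 3). With MyoD alone no library exceeded 1.80 CPM on any day, and MEFs had 0, 0 and 2 reads. Bulk iMPCs held 3.48, 1.13 and 6.32 CPM and Pax7-positive iMPCs 0.607, 5.29 and 4.14 CPM, both below every late F/R/C library. Bulk myoblasts had 3, 13 and 6 reads and Pax7-positive myoblasts 7, 8 and 1. All reads of the late libraries were assigned to Thbs4-201.

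Pkdcc (chromosome 17, 83215292 to 83225070, plus strand) encodes a secreted tyrosine kinase, also called Vlk, that is known for its role in skeletal growth. Unlike the genes near 0 at the start, it was measurable in MEFs at 8.13, 6.46 and 5.90 CPM. F/R/C libraries held 15.1, 6.47 and 4.70 CPM on day 2, 22.7, 15.3 and 22.3 CPM on day 6 and 65.9, 29.2 and 26.8 CPM on day 10. Replicate 1 was the highest on all 5 days. MyoD alone gave 13.4, 4.56 and 7.11 CPM on day 10, where replicate 1 was again the highest. Pax7-positive iMPCs held 12.5, 39.7 and 13.7 CPM, so that replicate 2 lay within the range of days 8 and 10 with F/R/C and the other two below it. Bulk iMPCs (5.01, 9.95 and 8.79 CPM) and both myoblast groups (at most 6.42 CPM) lay below that range. Pkdcc-204 carried 72.9% of the late reads, and the processed transcript Pkdcc-202 carried 14.7%.

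P2rx1 (chromosome 11, 72999103 to 73015200, plus strand) encodes an ATP-gated cation channel best known from smooth muscle and platelets. MEFs had no read of it. With F/R/C the libraries held 1.56, 0.563 and 0.368 CPM on day 2, 5.11, 4.21 and 3.05 CPM on day 4, and 8.63, 8.03 and 16.7 CPM on day 6. They then held 17.8, 31.7 and 69.9 CPM on day 8 and 33.3, 54.2 and 70.3 CPM on day 10. With MyoD alone no library had more than 8 reads on any day. Bulk iMPCs kept 5.45, 2.00 and 6.05 CPM, but Pax7-positive iMPCs had 1, 9 and 7 reads. P2rx1 was thus close to the detection limit of 3 reads in the sorted progenitors, and its 2 myoblast groups held at most 1.38 CPM. P2rx1-201 carried 90.1% of the late reads.

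Lyve1 (chromosome 7, 110850607 to 110863239, minus strand) encodes a hyaluronan receptor used as a marker of lymphatic endothelium and of some tissue macrophages. Its F/R/C libraries lay close together on days 4 and 6. F/R/C libraries went from 0.670, 1.41 and 2.26 CPM on day 2 to 21.7, 27.4 and 25.9 CPM on day 4 and 40.1, 39.3 and 41.0 CPM on day 6. The level was lower afterwards, with 31.03, 27.2 and 37.0 CPM on day 8 and 20.1, 17.9 and 36.7 CPM on day 10, when all 3 libraries lay below those of day 6. MyoD alone gave at most 0.545 CPM, or 11 reads, in any library. Bulk iMPCs held 7.14, 3.95 and 2.96 CPM. Pax7-positive iMPCs had 1, 3 and 0 reads, bulk myoblasts none, and Pax7-positive myoblasts 1 read in all, so those groups were at or below the detection limit. Lyve1-201 carried 88.5% of the late reads and a transcript with a retained intron, Lyve1-202, the other 11.5%.

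The gene Cpm (chromosome 10, 117629500 to 117687352, plus strand; not to be confused with the unit) encodes carboxypeptidase M, a membrane-anchored enzyme that trims basic residues from the ends of peptides. Its day 6 mean was the smallest share of the day 10 mean among the 10 genes. F/R/C libraries held 2.37, 1.36 and 1.38 CPM on day 2, 1.65, 1.11 and 1.76 CPM on day 4 and 2.62, 2.85 and 6.28 CPM on day 6, a mean of 9.22% of the day 10 level. On day 8 they held 17.9, 43.7 and 25.5 CPM and on day 10 38.7, 57.9 and 30.8 CPM. Days 6 and 8 did not overlap. One MEF library, replicate 1, stood at 13.7 CPM against 1.30 and 1.90 CPM in the others. Pax7-positive iMPCs were spread widely, at 10.3, 55.7 and 7.86 CPM, and bulk iMPCs held 11.1, 4.06 and 4.54 CPM. A transcript with a retained intron, Cpm-204, took 18.1% of the late reads and Cpm-201 took 81.4%. The summed Cpm reads were not whole numbers in every library.

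Moxd1 (chromosome 10, 24223517 to 24302790, plus strand) encodes a monooxygenase related to dopamine beta-hydroxylase and located in the endoplasmic reticulum. With F/R/C it started at 0.715, 0.422 and 0.552 CPM on day 2, below the 1.51, 1.15 and 1.03 CPM of MyoD alone. It was then at 2.89, 3.00 and 9.42 CPM on day 4, 5.92, 14.9 and 31.2 CPM on day 6, 24.5, 72.1 and 77.9 CPM on day 8 and 88.1, 151 and 87.1 CPM on day 10. The mean on day 8 was 53.5% of that on day 10, and the libraries of these 2 days did not overlap. With MyoD alone no library exceeded 2.67 CPM. Pax7-positive iMPCs held 10.4, 86.3 and 266 CPM, the highest group mean of all 15 (121 ± 131 CPM, SD, n = 3), and bulk iMPCs held 3.20, 0.733 and 25.9 CPM. In both iMPC groups replicate 3 was the highest. Pax7-positive myoblasts had no read, and bulk myoblasts 0, 4 and 0 reads. Moxd1-201 carried practically all late reads (99.97%).

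Dync1i1 (chromosome 6, 5725639 to 6028039, plus strand) encodes an intermediate chain of cytoplasmic dynein, the motor that carries cargo toward the minus ends of microtubules, and is best known from neurons. Its early and late levels overlapped. F/R/C libraries held 43.4, 45.9 and 18.8 CPM on day 2, 53.1, 59.03 and 34.6 CPM on day 6 and 56.1, 53.8 and 18.9 CPM on day 10. Replicate 3 was the lowest on all 5 days. MyoD alone was lower from the start, at 10.7, 10.2 and 3.91 CPM on day 2, and ended at 1.80, 3.12 and 0.558 CPM on day 10. MEFs held at most 0.604 CPM. Myoblasts were in part as high as the F/R/C cultures: bulk myoblasts held 15.6, 48.2 and 1.75 CPM and Pax7-positive myoblasts 22.7, 35.2 and 21.9 CPM. Bulk iMPCs held 5.61, 6.74 and 19.8 CPM and Pax7-positive iMPCs 2.04, 9.58 and 12.4 CPM. Dync1i1-201 carried 88.4% of the late reads.

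Sh2d3c (chromosome 2, 32721055 to 32755512, plus strand) encodes an adaptor that binds Cas family scaffolds downstream of receptors such as those for ephrins. F/R/C libraries held 2.73, 3.70 and 5.39 CPM on day 2, 6.15, 14.9 and 17.8 CPM on day 6, 14.2, 28.9 and 18.6 CPM on day 8 and 26.4, 32.9 and 15.7 CPM on day 10. With MyoD alone the highest library was replicate 2 on day 6, at 9.32 CPM, and day 10 gave 4.91, 5.25 and 3.35 CPM. As with Moxd1, the highest group mean was that of Pax7-positive iMPCs, whose libraries held 10.6, 26.4 and 54.4 CPM. Pax7-positive myoblasts held 13.8, 11.05 and 2.77 CPM and bulk iMPCs 1.94, 1.78 and 8.20 CPM. Sh2d3c-201 carried 93.6% of the late reads.

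Asxl3 (chromosome 18, 22344883 to 22530227, plus strand) encodes a chromatin protein of the Asx-like family, partners of the deubiquitinase BAP1. On days 2 and 4 it was not higher with F/R/C. F/R/C libraries held 4.11, 8.35 and 6.54 CPM on day 2 and MyoD alone 5.35, 10.7 and 11.2 CPM. The arms parted later, with 10.2, 23.3 and 10.9 CPM against 2.38, 2.53 and 1.11 CPM on day 8 and 16.9, 27.3 and 13.3 CPM against 1.71, 2.58 and 2.16 CPM on day 10. Pax7-positive iMPCs held 5.07, 15.9 and 14.2 CPM. Bulk iMPCs held 2.71, 1.41 and 3.15 CPM, and Pax7-positive myoblasts 3, 3 and 4 reads. Asxl3-202 carried 96.9% of the late reads. Its summed reads, too, were not whole in every library.

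Per length, the genes differed widely on day 10 with F/R/C. Sema6b, at 58.7 ± 13.8 TPM, Moxd1, at 57.8 ± 18.3 TPM, and Pkdcc, at 54.8 ± 31.6 TPM (SD, n = 3 each), were at the top. P2rx1 followed at 39.9 ± 14.8 TPM and Dync1i1 at 29.3 ± 14.4 TPM. The lowest was Asxl3, whose transcripts are long, at 2.71 ± 0.998 TPM.

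The order of the 15 group means in CPM was compared with the spread of their libraries. In Dync1i1, Pkdcc, Cpm and Sh2d3c each of the 14 pairs of neighbours in that order overlapped, so only distant groups were apart. In Sema6b and Thbs4 it was 13 of 14, in Asxl3 11, in Moxd1 and P2rx1 10 and in Lyve1 9. The same count was not made over all genes, so these counts describe the spread and are not read as a trait of the 10 genes. Day 10 with F/R/C was the top group in 6 genes, Pax7-positive iMPCs in Moxd1 and Sh2d3c, and day 6 with F/R/C in Lyve1 and Dync1i1. In Lyve1 the day 6 libraries lay wholly above those of day 8. In Thbs4 day 6 lay wholly above day 4, and in P2rx1 day 8 wholly above day 6.

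The rise within the F/R/C series was then tested on the days that the choice did not name. A gene was called at an adjusted p under 0.05 and at least 1 on the log2 scale in edgeR's quasi-likelihood test over 17325 genes, and all 10 genes passed the filter on low counts. On day 4 against day 2, 1 of the 10 was called: Lyve1 rose by 4.11 on the log2 scale (SE 0.455, adjusted p 5.7e-06). The background was 2.93% of genes called. Moxd1 (3.17, SE 1.02, adjusted p 0.0703), P2rx1 (2.30, SE 0.714, adjusted p 0.0604) and Thbs4 (2.49, SE 0.762, adjusted p 0.0552) missed the threshold. With the replicate number as a block, 3 of the 10 were called, Moxd1 (adjusted p 0.0335) and Thbs4 (adjusted p 0.0385) in addition to Lyve1. With DESeq2 it was 4, P2rx1 included. Over all genes the calls rose as well, from 508 to 713 with the block and to 818 with DESeq2.

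By day 6, 4 of the 10 genes had risen against day 2, while 7.41% of all genes were called and 6.66% of all genes were called higher. On the log2 scale Moxd1 rose by 4.93 (SE 1.06, adjusted p 0.00289), Lyve1 by 4.79 (SE 0.468, adjusted p 3.0e-07), P2rx1 by 3.73 (SE 0.738, adjusted p 0.00137) and Thbs4 by 3.67 (SE 0.792, adjusted p 0.00285). These are the channel, the hyaluronan receptor, the matrix protein and the monooxygenase, all near 0 on day 2. The value moved by over 1.5 times as a fold without 1 library in 3 of them: Moxd1 was 4.16 without replicate 3 of day 6, P2rx1 4.57 without replicate 1 of day 2 and Thbs4 4.49 without replicate 3 of day 2. In 7 of the 10 genes the day 6 libraries lay wholly above those of day 2, as in 20.3% of all genes. The median log2 fold change was 1.46 over the 10 genes and -0.01 over all genes. Libraries of the same number may come from the same cultures as the late days that chose the genes, so these days are other samples but perhaps not independent cultures.

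The other 6 genes were not called on day 6. Sh2d3c had a log2 fold change of 1.72 (95% interval 0.52 to 2.92, adjusted p 0.0636) and Pkdcc of 1.20 (0.28 to 2.12, adjusted p 0.0916). Pkdcc was called with the replicate block (1.29, adjusted p 0.0432) and without replicate 1 of day 2 (1.86, adjusted p 0.0367). Sh2d3c was called by DESeq2 (adjusted p 0.0278) and without replicate 1 of day 6 (2.05, adjusted p 0.0365). Cpm was at 1.20 (-0.20 to 2.59, adjusted p 0.288). Sema6b, at 0.59 (-0.74 to 1.92, adjusted p 0.62), Dync1i1, at 0.44 (-0.93 to 1.81, adjusted p 0.739), and Asxl3, at 0.40 (-0.47 to 1.27, adjusted p 0.605), had wide intervals around 0. These intervals take no account of the replicate numbers. In same-numbered pairs, Sema6b and Dync1i1 were higher on day 6 in 3 of 3 and Asxl3 in 2 of 3. With only these groups and the replicate block in edgeR's fit, Sema6b had 0.60 (adjusted p 0.00362), Dync1i1 0.54 (adjusted p 0.0167) and Asxl3 0.36 (adjusted p 0.2). None reached the minimum fold change in that alternative, which was chosen after seeing the data.

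**Figure D2:**
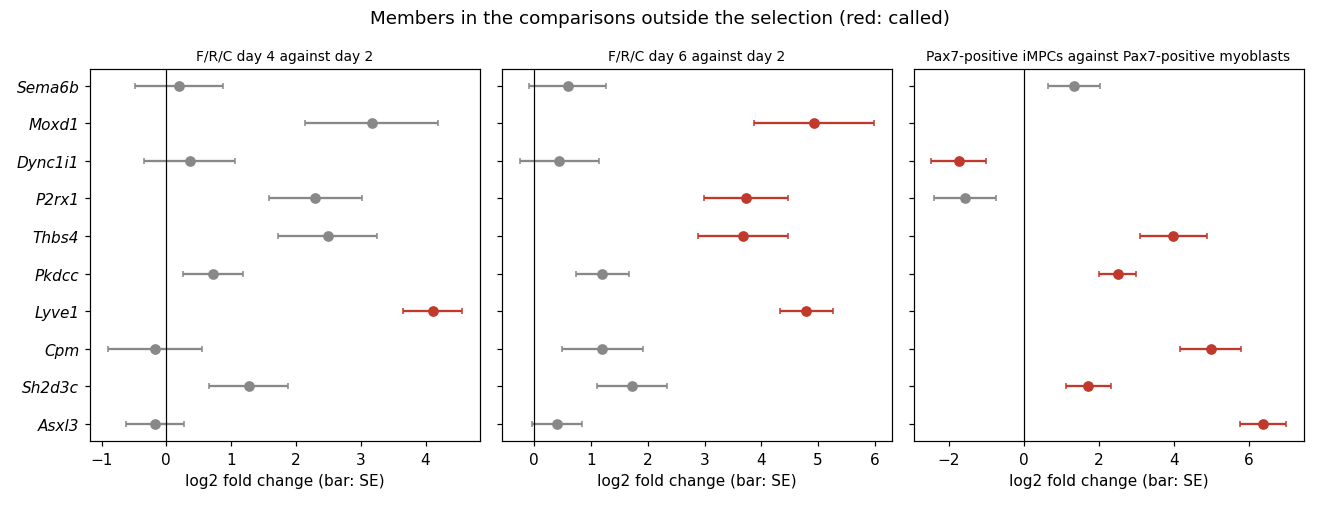
Log2 fold changes (x axis, points) with their standard errors (bars) for the genes in 3 comparisons that the choice did not name, from edgeR's fit; red points were called. Lyve1 is the only red point on day 4, Moxd1, P2rx1, Thbs4 and Lyve1 are red on day 6, and Moxd1 and Lyve1 are left out at right because 1 or both groups were at or below the detection limit.

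Levels in sorted iMPCs were next compared with those in sorted myoblasts. A difference between them does not by itself show that a gene marks induced progenitors. Between Pax7-positive iMPCs and Pax7-positive myoblasts, 6 of the 10 genes were higher in iMPCs and 1 was lower, against 12.4% and 17.6% of all genes (30.0% called in all). Moxd1, without a read in the myoblasts, was on average at least 968-fold above the floor of 3 reads per library (adjusted p 2.1e-07). Without replicate 3 of the iMPCs that bound was 387-fold, and replicate 1 by itself was at least 83.6-fold above the floor. Asxl3 was higher by 6.37 on the log2 scale (95% interval 5.17 to 7.57, adjusted p 1.5e-09), with 3 to 4 reads in each myoblast library, and Cpm by 4.98 (SE 0.81, adjusted p 7.9e-06), or 3.58 without replicate 2 of the iMPCs. Thbs4 was higher by 3.99 (SE 0.90, adjusted p 4.9e-04) and Pkdcc by 2.50 (SE 0.49, adjusted p 9.6e-05), or 1.79 without that same replicate. Thbs4 had 7, 8 and 1 reads in the myoblast libraries and 14, 131 and 80 in those of iMPCs, so its fold rests on few reads. The Thbs4 call was lost with only these groups and the replicate block in the fit (adjusted p 0.0542). For these 5 genes, every iMPC library lay above every myoblast library, as in 22.9% of all genes.

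Sh2d3c was higher in Pax7-positive iMPCs by 1.72 (SE 0.60, adjusted p 0.019), but its groups overlapped. That call was lost without replicate 3 of the iMPCs (1.03, adjusted p 0.198), without replicate 3 of the myoblasts (1.30, adjusted p 0.107) and with only these groups in the fit (adjusted p 0.123). Dync1i1 was lower, with a log2 change of -1.74 (SE 0.73, adjusted p 0.0484), and 10 of 13 alternatives ended that call, the replicate block among them (adjusted p 0.0512). The value ranged from -1.27 without replicate 1 of the iMPCs to -2.15 without replicate 3. Sema6b (1.34, 95% interval -0.01 to 2.70, adjusted p 0.11) was not called, but it was without replicate 1 of the iMPCs (1.83, adjusted p 0.0331), the library at 7.93 CPM. P2rx1 had -1.55 (-3.17 to 0.07, adjusted p 0.122) and was called lower without replicate 3 of the myoblasts (-2.01, adjusted p 0.049). These values rest on few reads, 1, 9 and 7 in the iMPC libraries and 27, 32 and 2 in those of myoblasts. With only these groups in the fit P2rx1 did not pass the filter on low counts, so it was tested here through other groups. For Lyve1 no fold is given, since both groups were at or under 3 reads.

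**Figure D3:**
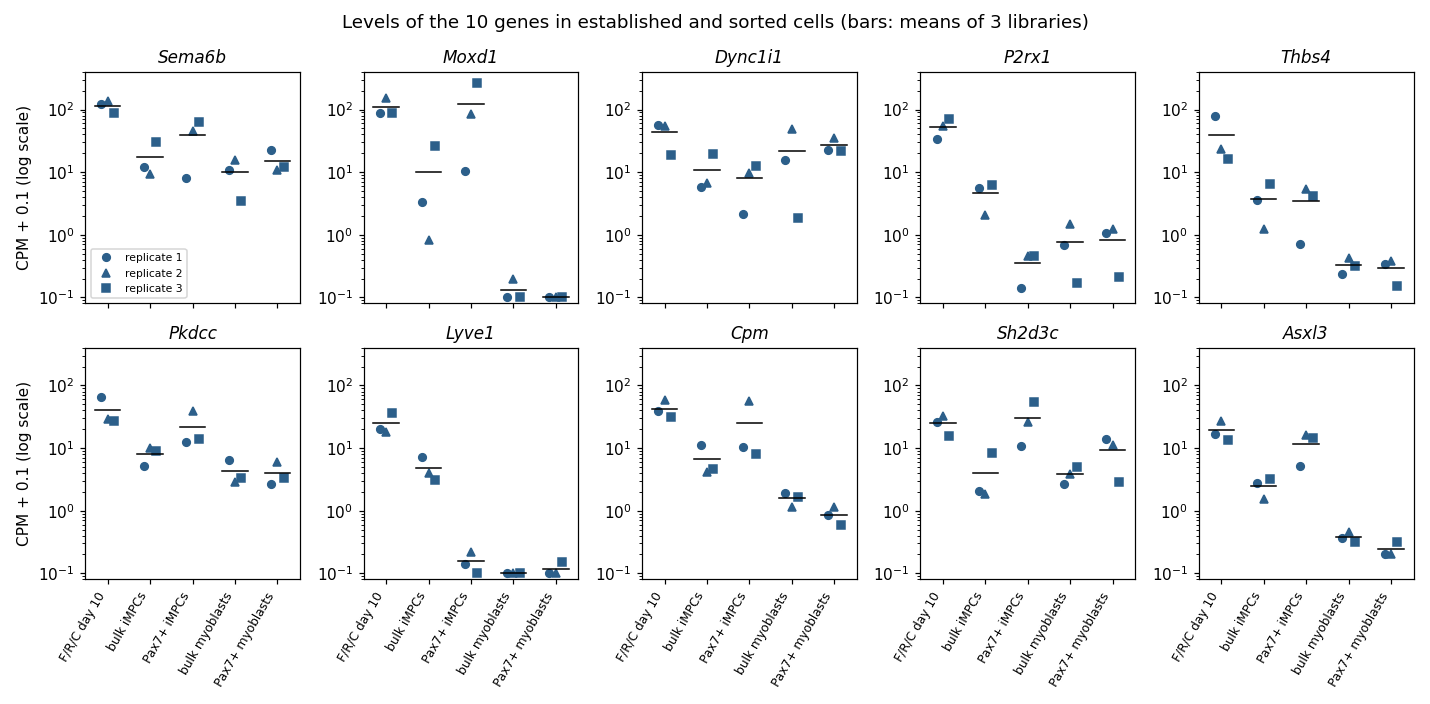
Levels of the 10 genes on day 10 with F/R/C and in the 4 groups of established and sorted cells; the y axis is CPM + 0.1 on a log scale, symbols are replicates 1 to 3 and bars the mean of 3 libraries. Moxd1 reaches 266 CPM in Pax7-positive iMPCs and lies at the bottom of the axis in Pax7-positive myoblasts, while P2rx1 and Lyve1 are near the bottom in both sorted groups.

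Between Pax7-positive and bulk myoblasts, 0 of the 10 were called by edgeR's test and 0 by DESeq2, while 6.23% of all genes were called. Lyve1 had at most 1 read and Moxd1 at most 4 reads in any of these libraries, so neither could have been called. Both had passed the filter on low counts through other groups. At an unadjusted p under 0.05, 1 of the 10 genes passed, Sh2d3c (26.5% of all genes), whose Pax7-positive libraries averaged 9.22 CPM and bulk libraries 3.72 CPM. With only these groups in the fit none of the 14528 genes then tested was called.

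Relatives and partners of the 10 genes, 66 in 10 lists, were examined on day 10 to see how the families behaved. Of the 63 that were tested, 6 were higher with F/R/C than with MyoD alone and 15 were lower, against a background of 9.91% and 13.4% (23.3% called). No relative was higher in the lists beside Moxd1, Dync1i1, Thbs4, Pkdcc, Cpm and Asxl3. The lists' medians ran from -1.50 (thrombospondins) to 0.28 (Asxl relatives), beside -0.07 for all genes.

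In the semaphorin list 2 of 3 class 6 relatives were higher, and both neuropilins, co-receptors for other semaphorins, were lower. Sema6a was among the higher genes (log2 fold change 1.95, SE 0.27, adjusted p 3.2e-06; 99.1, 131 and 68.04 CPM against 16.01, 29.1 and 31.8 CPM). Sema6c was higher by 1.61 (SE 0.44, adjusted p 0.00451). Nrp1 was lower, with a change of -2.07 (SE 0.61, adjusted p 0.00722) and Nrp2 too, with -2.62 (SE 0.51, adjusted p 1.7e-04). The plexins, receptors of the family, were not called. The Sema6a mean was 156 CPM in Pax7-positive iMPCs and 104 CPM in Pax7-positive myoblasts.

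Among the hyaluronan genes, Stab2, a scavenger receptor that takes up hyaluronan, followed Lyve1 in direction. Its libraries held 1.11, 6.52 and 6.29 CPM with F/R/C on day 10 and at most 0.198 CPM with MyoD alone (adjusted p 2.8e-04). It came later, with a day 4 mean of 0.418 ± 0.157 CPM and a day 8 mean of 2.70 ± 2.80 CPM (SD, n = 3), when the Lyve1 mean was already below its highest value. Stab1 was higher as well (1.78, SE 0.52, adjusted p 0.00736). Cd44, the common hyaluronan receptor (-1.74, SE 0.41, adjusted p 0.00106), the synthase Has2 (-3.16, SE 0.73, adjusted p 8.9e-04) and the hyaluronidase Hyal1 (-1.30, SE 0.38, adjusted p 0.00758) were lower. Has1 was called lower too, at no more than 0.0974 CPM with F/R/C.

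Thbs1, the most abundant relative of its list per length, was lower with F/R/C. It averaged 8509 CPM with MyoD alone and 460 CPM with F/R/C on day 10 (-4.21, SE 0.83, adjusted p 2.0e-04). Thbs3 was lower (-1.77, SE 0.68, adjusted p 0.0372), a call that 8 of 13 alternatives ended. Among the P2X channels P2rx3 was higher (2.68, SE 0.55, adjusted p 2.8e-04), at no more than 2.22 CPM, and P2rx4 (-1.91, SE 0.26, adjusted p 2.5e-06) and P2rx5 (-1.64, SE 0.41, adjusted p 0.00198) were lower.

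The remaining lists gave few or no calls. Efs, a Cas family scaffold of the kind Sh2d3c adaptors bind, was higher (2.43, SE 0.53, adjusted p 5.8e-04), with 86.8, 91.3 and 87.6 CPM against 15.6, 17.3 and 16.5 CPM. It averaged 129 ± 17.3 CPM in Pax7-positive iMPCs and 4.85 ± 3.91 CPM in Pax7-positive myoblasts. Nedd9, another Cas scaffold, was lower (-2.26, SE 0.57, adjusted p 0.0022). Pam, a peptide-amidating monooxygenase (-2.06, SE 0.46, adjusted p 6.2e-04), the dynein light chain Dynlt3 (-1.27, SE 0.21, adjusted p 2.5e-05), and the carboxypeptidase family members Cpe (-3.23, SE 0.76, adjusted p 0.00117) and Aebp1 (-2.16, SE 0.72, adjusted p 0.017) were lower. In the dynein list, Dync1h1 (-0.90), Dctn2 (-0.75), Dynlrb1 (-0.69), Dynll1 (-0.67), Dync1i2 (-0.67) and Dync1li2 (-0.37) had an adjusted p under 0.05 in edgeR's test. They missed only the minimum fold change, as did Bcar1 (-0.86) and Cpd (-0.75) in other lists. Dynll2 went the other way (0.39, adjusted p 0.065). These genes, too, were named after their values were seen. None of the secretory kinases or Asxl partners was called by edgeR's test, although Fam20b (-0.63, adjusted p 2.6e-04), Pomk (-0.71, adjusted p 1.2e-04) and Foxk1 (-0.49, adjusted p 0.00724), named after their values were seen, missed only the minimum fold change. The most abundant per length were Fam20c (log2 fold change -0.51, adjusted p 0.23) and Hcfc1 (0.27, adjusted p 0.182). Of the 21 calls, 16 stood under every alternative run, and Thbs3, Aebp1, Hyal1, Nrp1 and Stab1 lost theirs under 1 or more.

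**Figure D4:**
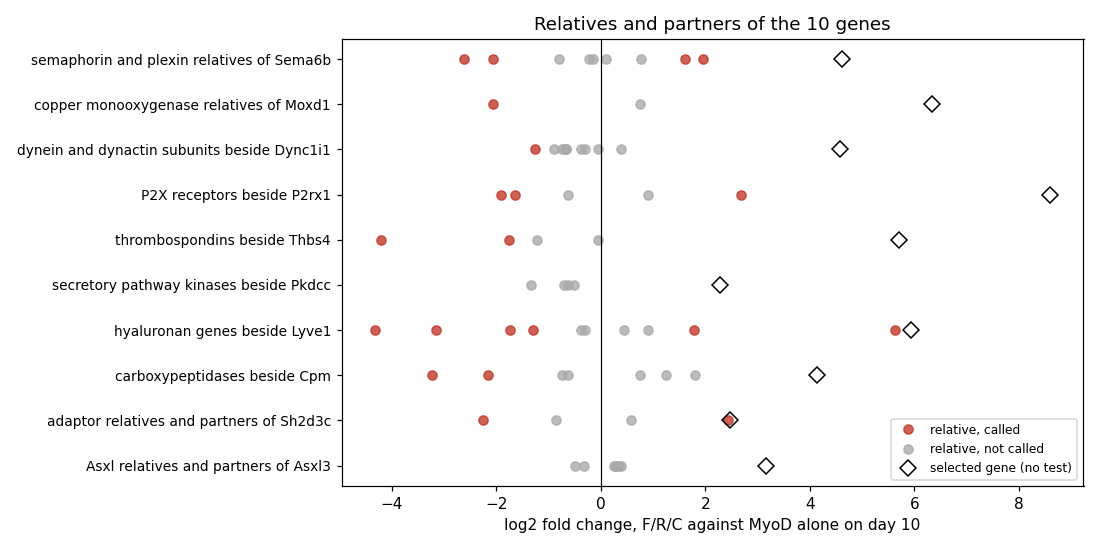
Log2 fold changes of F/R/C against MyoD alone on day 10 (x axis) for the relatives and partners, one list per line; red circles were called, grey circles were not, and open diamonds are the 10 selected genes, shown without a test because the choice used this contrast. The diamonds all lie to the right of 0, while 15 of 21 called relatives lie to the left; the fitted values of Stab2, Has1 and P2rx1 rest on few reads in 1 arm.

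Bulk iMPCs against day 10 with F/R/C called 2 relatives higher (Pam and Nedd9) and 6 lower (P2rx7, Comp, Stab2, Cpz, Bcar1 and Mbd6), against 3.33% and 6.24% of all genes (9.57% called). Stab2, at 0.383, 0.282 and 0.403 CPM in bulk iMPCs, was among the lower genes (log2 fold change -3.68, SE 0.97, adjusted p 0.00679). Each of these 8 calls was lost under at least 1 alternative, and with only the compared groups and the replicate block none of the 15642 genes then tested was called. All bulk iMPC libraries were deeper than those of day 10, so depth and group cannot be told apart.

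Markers of other cell types, 64 in 11 lists, were read beside these genes on day 10. The macrophage markers Adgre1, Cx3cr1 and Fcgr1 had at most 3 reads in each library of both arms; the summed macrophage list ran from 9.22 to 9.99 CPM with F/R/C and from 4.54 to 7.63 CPM with MyoD alone, with Mrc1 higher and Csf1r and Lyz2 lower. Of the lymphatic markers, which bear on Lyve1, Flt4 and Pdpn were lower with F/R/C, Prox1 was not called (-1.04, adjusted p 0.0891) and Ccl21a had at most 3 reads in every library. The summed list was at 44.4 to 82.03 CPM with F/R/C and 114 to 307 CPM with MyoD alone. The endothelial list summed to 5.72 to 18.3 CPM and 9.27 to 11.2 CPM, with Vwf higher and Kdr and Emcn lower. In the platelet list, which bears on P2rx1, 0 of 3 tested markers were called. Smooth muscle markers, which also bear on P2rx1, summed to 1055 to 1818 CPM against 2594 to 7230 CPM, with Cnn1 and Tagln lower.

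The tendon list, which bears on Thbs4, summed to 4.14 to 12.04 CPM with F/R/C and 7.56 to 12.6 CPM with MyoD alone, with Kera higher and Scx lower. The neuronal list, which bears on Dync1i1, summed to 29.9 to 49.01 CPM against 81.3 to 156 CPM, with Snap25 higher and Stmn2 lower. The muscle progenitor list summed to 1445 to 1556 CPM against 555 to 1271 CPM. Of its 6 markers Pax7, Myf5 and Heyl were higher and the others were not called. Of the fibre markers 0 of 6 were called. The fibroblast list summed to 515 to 3001 CPM against 2505 to 9636 CPM. Of its 6 markers Thy1 and Col1a2 were lower, Lum was higher and the others were not called. Of the 20 marker calls named, 8 stood under every alternative run (Mrc1, Vwf, Kdr, Tagln, Snap25, Pax7, Myf5 and Heyl). The other 12 were lost under 1 or more, Scx under 10 of 13, Emcn under 7, and Cnn1, Thy1 and Col1a2 under 5 each. The part of any of these cell types in the levels of the 10 genes was not tested.

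The 10 genes were not equally alike. Across the 15 group means of log2 CPM, the 45 pairs had a Pearson r from 0.187 (Dync1i1 with Cpm) to 0.910 (P2rx1 with Thbs4), with a median of 0.686. Against the mean of all 10, Thbs4 was the nearest (r 0.976), followed by Pkdcc (0.940), and Dync1i1 (0.687) and Asxl3 (0.725) were the farthest. The points share libraries, and the genes were chosen for a common pattern, so these values are a description.

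Outside the set, the 5 genes nearest to its mean profile over the 15 group means were St6galnac5 (r 0.966), a sialyltransferase, Asic4 (0.965), of the acid-sensing channel family, Gpr50 (0.956), an orphan receptor, Fem1b (0.955), a substrate receptor of a ubiquitin ligase, and Wdr86 (0.951). Asic4 and Wdr86 were low throughout, with their highest group means, on F/R/C day 10, at 1.43 and 2.82 CPM, so their r rests on few reads. The mean of Gpr50 was 12.5 CPM on F/R/C day 10, 3.08 CPM in bulk iMPCs and 0.761 CPM in Pax7-positive iMPCs, an order like that of P2rx1. The mean of St6galnac5 was 8.78 CPM on F/R/C day 10 and 13.5 CPM in Pax7-positive iMPCs, an order like that of Moxd1. Fem1b moved over a small range, between 61.7 CPM (MEFs) and 129 CPM (F/R/C day 10), so a high r over group means does not stand for a change of the same size.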

How the data were processed

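Per the labels' protocols, stranded libraries were made from poly-A RNA and read from a single end. The submitters' processing notes name bcl2fastq 2.19, Trimmomatic 0.36, kallisto 0.44 and edgeR 3.28. Per the file headers, each deposited file holds estimated counts, which are not normalised, and TPM, scaled to length and a fixed sum, for 121843 transcripts. Of these, 121104 matched GENCODE M21 (GRCm38), whose symbols and coordinates are used; estimated counts were summed to 35675 genes and rounded. Reads of 8 of the 10 genes came out whole to within 0.01 read in every library. Near-identical copies can share reads.

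Comparisons used edgeR 4.0.16 in R 4.3.3 (TMM, filterByExpr, glmQLFit, glmQLFTest; 45 libraries in 1 fit, no replicate block, 30 residual degrees of freedom), with Benjamini-Hochberg adjustment over 17325 genes and a minimum log2 fold change of 1 in either direction. DESeq2 1.42.0, RLE factors, no filter, no minimum fold, only the compared groups, a replicate block and leaving out single libraries were the alternatives. Standard errors and intervals come from the fit. On simulated data with 200 genes changed 4-fold on day 6 against day 2, 123 of 126 calls were true (61.5% of those changed). The floor was 3 reads; floors cover counting error only.

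Groups and replicate numbers come from the sample titles. Nothing states that replicates are separate cultures. In MEFs and the time course, Xist, an RNA made in female cells, was at most 0.414 CPM in replicate 3. In replicates 1 and 2 it was at 262 to 677 CPM. With the Y-linked reads, replicate 3 thus differed in sex from replicates 1 and 2 and was not a technical repeat of them. For replicates 1 and 2, and for the other groups, this is not settled. The p-values measure the spread between samples, part of which may be technical. The deviations of same-numbered libraries had r of 0.467, 0.42 and 0.419 between days 4 and 2 and of 0.429, 0.291 and 0.319 between days 6 and 2 with F/R/C, so numbers pair those groups. The genes, relatives and marker lists were chosen with earlier results of these data known. The text names the 10 genes, relatives called on day 10 or else the most abundant of a list, the 5 genes most alike, and up to 3 called markers a list. The result of 1 marker list is not reported here. The search for CANNTG was added after the other motifs had no match. The RefSeq promoter table matched 8 of the 10 genes.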

Additional observations from a re-analysis of the deposited data

How the results depend on the processing

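Several counts moved with the processing. Over all genes, day 4 against day 2 called 508 genes, 818 with DESeq2, 975 with only the compared groups and from 150 to 609 when single libraries were left out. Day 6 against day 2 called 1283, 1971 with no minimum fold change and 680 to 1402 without single libraries. Sorted iMPCs against sorted myoblasts called 5199, 8233 with no minimum fold change and 3424 with only those groups. Sorted against bulk myoblasts called 1080, 2059 with no minimum fold change, 0 with only those groups and 513 to 1428 without single libraries. F/R/C against MyoD alone on day 10 called 4037, and 7108 with no minimum fold change; bulk iMPCs against day 10 called 1658, and 3549 with no minimum fold change.

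With the replicate block the 6 counts were 713, 1510, 5357, 1253, 4199 and 1917, and with the block and only the compared groups, an alternative chosen after seeing the data, they were 1550, 2138, 3064 and 0 in the first 4, and 0 for bulk iMPCs. Of the 10 genes, day 4 called 1, 2 with RLE factors, 4 with DESeq2 or only those groups, 5 with those groups and the replicate block, 3 with the replicate block and 1 to 2 without single libraries. Over all 17325 genes, RLE factors gave 566 calls against 508 on day 4. With only those groups 975 of 14446 genes were called, and 1550 with the block as well. Calls thus rose beyond the 10 genes too. Sorted iMPCs against sorted myoblasts called 7 of the 10, and 4 with those groups and the replicate block. In that last fit Lyve1 and P2rx1 did not pass the filter on low counts and were not tested. Apart from the day 4 and day 6 calls given above and that of Dync1i1, the block in the fit of all libraries ended or added no call among the 10. On day 10 same-numbered libraries of the 2 arms had r of 0.264, 0.246 and 0.0617, and replicate number 3 went with Y-linked reads in both arms. For the comparisons with sorted, iMPC or myoblast libraries the labels tie the numbers to nothing shared. Without single libraries, the uncalled day 4 values ranged from -0.36 to 0.13 for Cpm, from -0.45 to 0.10 for Asxl3 and from -0.013 to 0.35 for Sema6b, and changed sign without replicate 1 of day 2 (Cpm), without replicate 2 of day 2 or 1 of day 4 (Asxl3; 0.062 in the former) and without replicate 3 of day 4 (Sema6b). The cause of these shifts was not tested. Depth limits Lyve1 and Moxd1 in myoblasts and P2rx1 with MyoD alone, all at a few reads.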
